A study of Mus musculus with 21 samples.

Results

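Synaptotagmins are membrane proteins, several of which couple calcium to membrane fusion. 10 genes of the family were followed here in spiral ganglion neurons (SGNs), the bipolar neurons that carry sound information from the hair cells (HCs) of the cochlea to the brainstem. The 10 members are *Syt1*, *Syt2*, *Syt3*, *Syt4*, *Syt5*, *Syt6*, *Syt7*, *Syt9*, *Syt11* and *Syt13*. They were found by symbol among the 52550 genes of the count table, by a list drawn up with earlier results of these data known, and all 10 passed the filter on low counts in the fits of both 15 and 21 libraries. 7 other *Syt* genes and a list of 24 genes of the release machinery were examined beside them.

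All cells came from C57BL/6 mice that carried the *Rosa26-CAG-loxp-stop-loxp-tdTomato/+* reporter, and each group held 3 bulk RNA-Seq libraries (21 in all). SGNs of 5 ages (E15.5 and P1, and then P8, P14 and P30) were labeled by *ShhCre/+*, a constitutive Cre (tissue with germ-line leakage was discarded), and were picked by hand (69 to 195 cells per library). HCs at P12, from cochlea and vestibule together, were labeled by *Atoh1-CreER+* with tamoxifen given at P0 and P1 (1200 cells per library), and the labels describe manual sorting of all cells while the study's methods name flow sorting for the HCs. Glial cells at P8 were labeled by *vGlut3-iCreER/+* with tamoxifen given at P2 and P3, a line that also labels inner HCs, and were taken from the ganglion area (86 to 125 cells per library). A library is a pool of cells, and nothing in the labels ties it to a particular animal, so p-values measure only the spread between these libraries.

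A typical synaptotagmin has a transmembrane segment and a pair of C2 domains, and calcium drives the C2 domains of the sensor isoforms into the membrane and onto the SNARE proteins. *Syt1* and *Syt2* encode fast sensors of synchronous release, and *Syt2* is the main sensor at many fast auditory and hindbrain synapses. *Syt3* and *Syt7* encode sensors of higher calcium affinity, while *Syt4*, *Syt11* and *Syt13* encode members in which calcium binding is altered or lost. The names of *Syt5* and *Syt9* have been exchanged in parts of the literature, so no role is given for either. Inner HCs release transmitter at ribbon synapses with otoferlin, encoded by *Otof*, in place of a classical fast synaptotagmin.

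The DNA just before the start sites is shown for *Syt1*, *Syt2* and *Syt3*, the 2 fast sensors and the high-affinity sensor with the steepest early rise. Each line gives the 250 bases before the RefSeq start (GRCm38.p6) nearest the annotated 5′ end of the gene, 5′ to 3′ in the direction of the gene. Capitals mark matches on either strand to the GC box GGGCGG, the CCAAT box CCAAT, the TATA box TATAAA, the cAMP response element core TGACG or the GATA letters AGATAA, and no marked matches overlapped.
*Syt1*, chr10:109010976-109011225 on the minus strand: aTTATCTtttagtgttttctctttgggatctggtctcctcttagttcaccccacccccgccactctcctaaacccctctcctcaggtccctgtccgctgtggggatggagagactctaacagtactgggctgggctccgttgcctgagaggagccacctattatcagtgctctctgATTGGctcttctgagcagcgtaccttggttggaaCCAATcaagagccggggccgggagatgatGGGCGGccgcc
*Syt2*, chr1:134646362-134646611 on the plus strand: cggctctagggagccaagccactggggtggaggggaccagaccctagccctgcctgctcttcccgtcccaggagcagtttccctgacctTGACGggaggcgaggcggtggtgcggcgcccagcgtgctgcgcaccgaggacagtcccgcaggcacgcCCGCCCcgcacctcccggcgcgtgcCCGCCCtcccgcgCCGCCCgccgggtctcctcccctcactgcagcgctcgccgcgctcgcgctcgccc
*Syt3*, chr7:44383876-44384125 on the plus strand: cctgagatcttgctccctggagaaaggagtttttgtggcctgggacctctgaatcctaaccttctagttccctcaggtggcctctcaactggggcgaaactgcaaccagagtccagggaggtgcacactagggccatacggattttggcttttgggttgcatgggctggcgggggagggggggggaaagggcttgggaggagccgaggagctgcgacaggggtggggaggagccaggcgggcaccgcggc

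The *Syt1* window held 1 GC box, 2 CCAAT boxes and 1 GATA match. In the *Syt2* window there were 3 GC boxes and 1 cAMP response element core, with a GC content of 76.0%. The *Syt3* window held none of these letters but 2 E-boxes (CANNTG, not in capitals), at a GC content of 62.4%. Over 32851 promoter windows of the same length, the GC content had a median of 52.4%, and the shares with a match were 32.7% for the GC box, 33.8% for the CCAAT box, 12.4% for the TATA box, 17.8% for the cAMP response element core, 9.99% for the GATA letters and 66.2% for the E-box. Windows were found for 6 of the 10 members. The matches describe letters and were not tested as binding sites.

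Values are counts on genes deposited without normalization. Levels are given as TPM, which scales counts to gene length and library total, and changes as log2 fold changes from limma-voom. Totals ranged from 10368240 to 37287489 counts per library, and a count of 0 allows up to 3 counts, or 0.0805 to 0.289 CPM (counts scaled to the library total), which covers counting error only. SGN markers (7 genes, with *Slc17a7* and *Tubb3* among them) summed to 457 to 2737 TPM in the SGN libraries, against 44.2 to 60.4 TPM in HCs and 10.7 to 123 TPM in glia. 8 HC markers summed to 5395 to 6557 TPM in HCs and to 30.1 to 782 TPM in SGNs. 2 glial markers (*Sox10*, *Foxd3*) summed to 189 to 341 TPM in glia and to 0.181 to 26.2 TPM in SGNs. P14 replicate 1 had the highest HC marker sum of the SGN libraries (782 TPM) and the highest glial marker sum at P14 (19.2 TPM). P14 replicate 2 had an SGN marker sum of 1282 TPM, against 2559 and 2737 TPM in the other P14 libraries. Each of the 10 members was lowest there in TPM among the 3 P14 libraries. In CPM, however, *Syt2* (813 against 668 and 757) and *Syt7* (383 against 280 and 275) were highest there. *Syt3* lay between the others (238 against 175 and 248 CPM), and the other members were lowest in CPM as well. The ratio of TPM to CPM differs between libraries, so an order of libraries in TPM need not hold in CPM. Glial replicate 1 had an SGN marker sum of 123 TPM, against 32.9 and 10.7 TPM in the other glial libraries. None of the 7 genes was at 0 in glial replicate 1 or in glial replicate 3.

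The first question was how the family changed as SGNs matured. From E15.5 to P1, *Syt2*, *Syt3*, *Syt4* and *Syt7* rose, and from P1 to P8 *Syt2* and *Syt3* rose further while *Syt5* fell. No member passed the thresholds (at least 2-fold, Benjamini-Hochberg adjusted p under 0.05) from P8 to P14 or from P14 to P30. Between E15.5 and P30, *Syt1*, *Syt2*, *Syt3*, *Syt4*, *Syt7* and *Syt11* rose and *Syt5* fell. In these pooled cells, fewer cells of a type and less RNA per cell cannot be told apart. The levels of all 10 genes by library are plotted first.

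**Figure D1:**
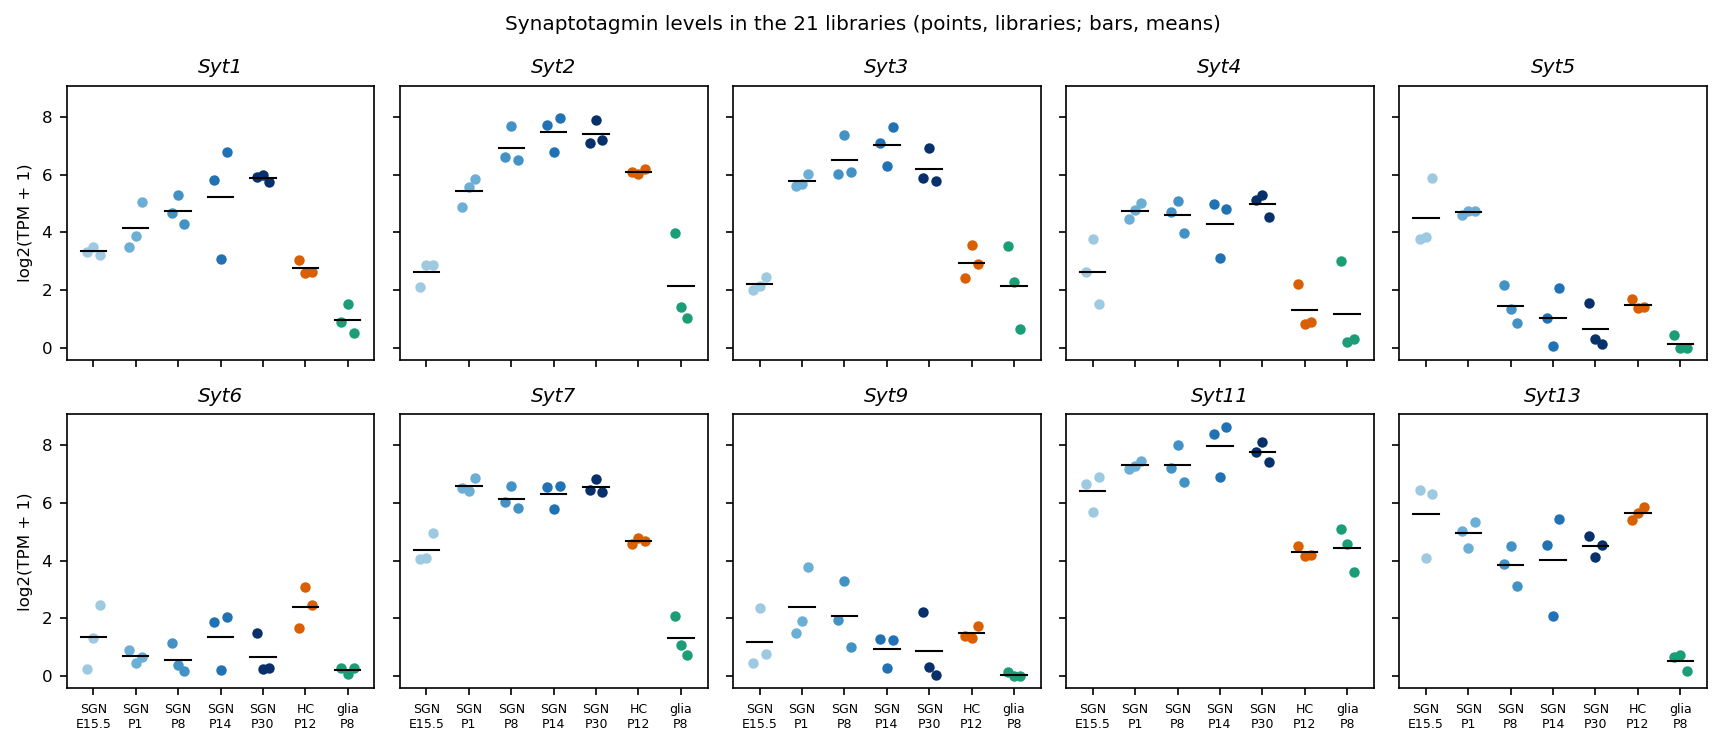
Level of each of the 10 synaptotagmin genes as log2(TPM + 1) (vertical axis) in the 7 groups (horizontal axis); points are the 3 libraries of a group in the order of their replicate numbers and bars are their means. *Syt2* and *Syt3* climbed from E15.5 to P8, *Syt5* was at 12.7 TPM or more at E15.5 and P1 and at 3.46 TPM or less later in SGNs, and *Syt6* and *Syt9* stayed low.

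Of the 10 members tested from E15.5 to P1, 4 rose and 0 fell, against 5.08% of all 15113 genes that rose and 3.18% that fell. In the same step the SGN marker sum lay at 457 to 573 TPM at E15.5 and at 806 to 1073 TPM at P1. The HC marker sum lay at 30.1 to 175 TPM and at 469 to 546 TPM. Both differed without overlap in TPM, which need not hold in CPM, and their part in the members' rise was not tested. The step to P8 had 2 members that rose and 1 that fell, against 4.29% and 3.15% of all genes (1 and 1 with library size as the only scaling). In this step 8 myelin genes summed to 65.4 to 207 TPM at P1 and to 798 to 1457 TPM at P8. The glial marker sum was 1.86 to 3.61 TPM at P1 and 10.8 to 26.2 TPM at P8. These sums also differed without overlap in TPM, and their part in the members' changes was not tested. From P8 to P14, 0 of 10 passed with limma-voom, with edgeR and with DESeq2 (2 had an unadjusted p under 0.05), and the shares of all genes were 0.251% and 0.285%. From P14 to P30, 0 of 10 passed with each of the 3 tools (4 had an unadjusted p under 0.05), and 0.0331% and 0.0265% of all genes did. Both counts of 0 also held without P14 replicate 2. Between E15.5 and P30, 6 rose and 1 fell, against 18.4% and 16.2% of all genes (6 and 2 with library size as the only scaling), and the median log2 fold change was 1.95 over the members and -0.0064 over all genes tested. An F test across the 5 ages called 8 of 10, against 34.1% of all genes, and *Syt6* and *Syt9* did not pass. These comparisons share libraries and are not independent of each other.

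**Figure D2:**
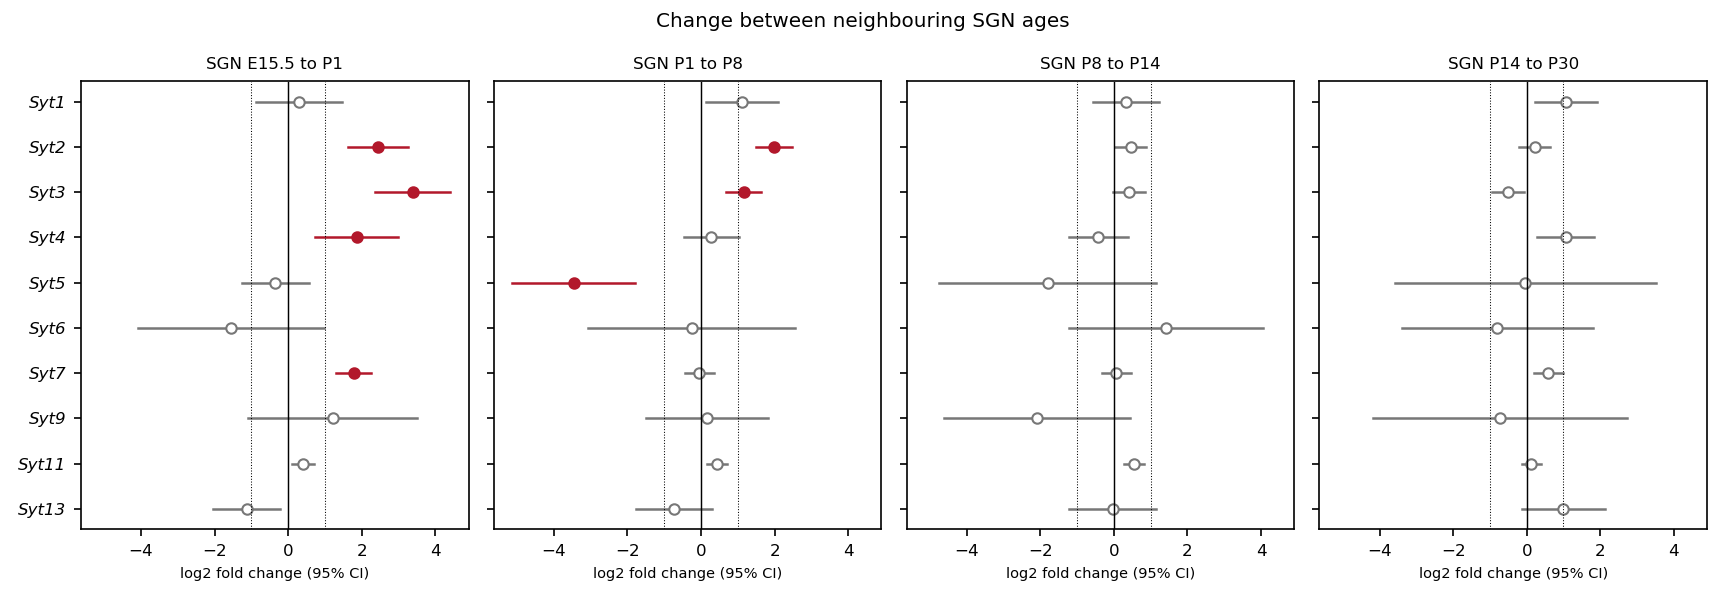
Log2 fold change between neighboring SGN ages (horizontal axis, with its 95% confidence interval from limma-voom) for each of the 10 genes; filled red points passed both thresholds, open gray points did not, and dotted lines mark a 2-fold change. 4 genes passed from E15.5 to P1, 3 from P1 to P8 and 0 later.

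Of the 2 fast sensors, *Syt2* (chr1:134646677-134762593, plus strand, GRCm38 as for all gene positions here) changed more. Its TPM in the 3 libraries was 3.25, 6.36 and 6.35 at E15.5, 28.1, 46.2 and 56.2 at P1 and 97.6, 203 and 89.8 at P8. At P14 it was 209.7, 109 and 248, and at P30 134, 235 and 147. Each library of P1 lay above each of E15.5, and each of P8 above each of P1, while the later ages overlapped in TPM. In CPM, the P8 libraries (509, 635 and 611) lay below those of P14 (668, 813 and 757). The level rose 5.47-fold from E15.5 to P1 (log2 fold change 2.45 ± 0.39 SE, limma-voom adjusted p = 0.00117) and 3.96-fold from P1 to P8 (log2 fold change 1.98 ± 0.23 SE, limma-voom adjusted p = 5.93e-05). The P30 libraries lay 34.5-fold above those of E15.5 (log2 fold change 5.11 ± 0.37 SE, limma-voom adjusted p = 3.58e-08). All 3 calls held in each of 22 alternatives.

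*Syt1* (chr10:108497650-109010982, minus strand), the sensor of most forebrain synapses, started above *Syt2* and ended below it. Its TPM was 8.88, 10.2 and 8.31 at E15.5, 10.4, 13.6 and 32.0 at P1 and 24.7, 38.2 and 18.3 at P8. At P14 the 3 libraries spread widely, at 54.9, 7.34 and 109, and at P30 they lay close together, at 59.6, 62.6 and 52.4. No step between neighboring ages passed the thresholds, with log2 fold changes of 0.31, 1.11, 0.33 and 1.07 in order of age. From P1 to P8 the limma-voom adjusted p was 0.140, and without P14 replicate 2, which enters the shared estimate of the spread, it was 0.0428. Over the whole period *Syt1* rose 7.05-fold (log2 fold change 2.82 ± 0.50 SE, limma-voom adjusted p = 0.000313), and this call held in each of 22 alternatives.

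Because the 2 genes encode sensors of the same kind, the level per length of *Syt2* was set against that of *Syt1* within each library. At E15.5, *Syt2* was the lower of the pair in each library, with log2 ratios of -1.45, -0.69 and -0.39. From P1 on, it was the higher in each SGN library, with ratios of 1.44, 1.77 and 0.81 at P1, 1.99, 2.41 and 2.30 at P8, 1.93, 3.89 and 1.18 at P14, and 1.17, 1.91 and 1.48 at P30. The mean of the 6 libraries of P14 and P30 was 1.93 ± 1.02 (SD), and that of the 6 libraries of E15.5 and P1 was 0.249 ± 1.28 (SD). The difference of 1.68 on the log2 scale had p = 0.0325 in a two-sided exact permutation test over 924 arrangements. The test treats the libraries of both ages on a side as exchangeable. The age means, however, were -0.841 at E15.5, 1.34 at P1, 2.34 at P14 and 1.52 at P30. The p-value therefore cannot separate a difference at E15.5 alone from one between the early and the late ages. The test depended on single libraries: leaving out any E15.5 library, P14 replicate 1, P14 replicate 2 or P30 replicate 2 moved p above 0.05 (0.0563 to 0.0736). 2 of the 3 P1 ratios lay within the range of P30. HCs had the highest group mean, 3.56 ± 0.316 (SD, n = 3).

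**Figure D3:**
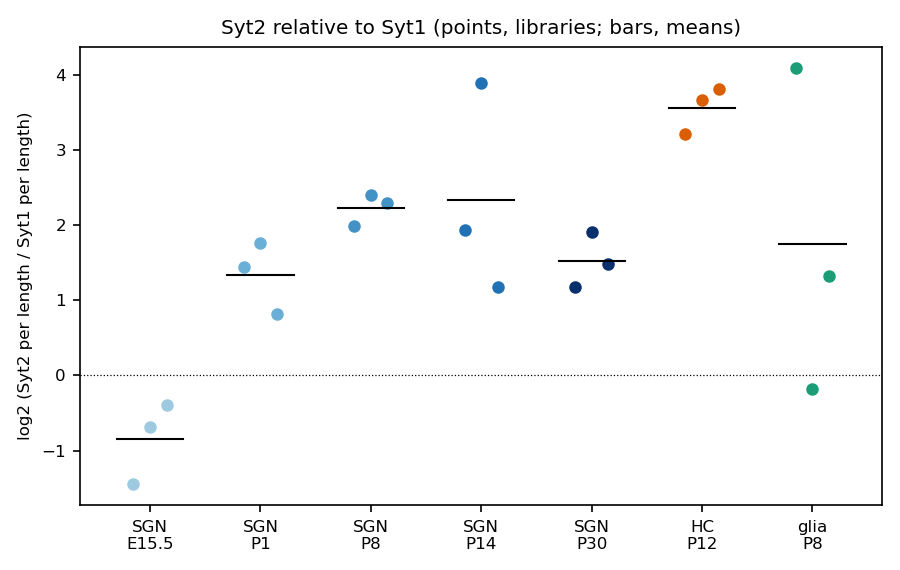
Log2 ratio of the level per length of *Syt2* to that of *Syt1* (vertical axis) in the 21 libraries by group (horizontal axis); points are libraries and bars are means of 3, and the dotted line marks equal levels. The 3 E15.5 libraries lie below 0, the other 12 SGN libraries lie above it, and P14 replicate 2 stands at 3.89.

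*Syt9* (chr7:107370728-107548656, plus strand) was low in SGNs at every age. Its TPM was 0.364, 4.09 and 0.704 at E15.5, 1.80, 2.70 and 12.7 at P1 and 2.82, 8.73 and 1.01 at P8. At P14 it was 1.45, 0.215 and 1.37, and at P30 3.62, 0.226 and 0.0239. The libraries of each age overlapped with those of the next, and 1 library at P1 (12.7 TPM) and 1 at P8 (8.73 TPM) were the highest. In the F test over ages the limma-voom adjusted p was 0.254, and the 95% interval of the log2 fold change between E15.5 and P30 ran from -4.74 to 1.85.

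*Syt3* and *Syt7*, the sensors of higher calcium affinity, rose early. *Syt3* (chr7:44384102-44400187, plus strand), whose product is found mainly at the plasma membrane, had a TPM of 2.99, 3.39 and 4.41 at E15.5 and of 47.8, 50.4 and 64.0 at P1. It stood at 63.3, 166 and 67.8 at P8, at 134, 78.2 and 198 at P14 and at 58.0, 120.5 and 53.8 at P30. The E15.5 libraries lay below all others, and neighboring ages from P1 on overlapped in TPM. The step from E15.5 to P1 was 10.4-fold (log2 fold change 3.38 ± 0.48 SE, limma-voom adjusted p = 0.000551), the largest rise of the 10 genes in that step. From P1 to P8 the level rose 2.24-fold (log2 fold change 1.16 ± 0.22 SE, limma-voom adjusted p = 0.00283). The TPM ranges of these ages overlapped, while in CPM P1 (88.5, 98.2 and 85.6) lay below P8 (135, 213 and 188). With library size as the only scaling the fold fell under 2 (log2 0.95). From P14 to P30 the log2 fold change was -0.51 ± 0.21 (SE) and did not pass (limma-voom adjusted p = 0.666).

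*Syt7* (chr19:10389090-10453180, plus strand), a sensor of asynchronous release and facilitation that also acts in membrane repair, rose before P1. Its TPM was 15.46, 16.0 and 30.1 at E15.5 and 90.4, 85.1 and 115 at P1. At P8 it was 64.3, 94.6 and 55.2, at P14 92.4, 54.0 and 94.7, and at P30 87.2, 113 and 82.5. In TPM, only the E15.5 libraries lay apart from the rest of the SGN libraries. In CPM, the P8 libraries (319, 282 and 358) also lay below those of P1 (390, 387 and 360). Those of P14 (280, 383 and 275 CPM) lay below those of P30 (434, 446 and 504 CPM). The rise from E15.5 to P1 was 3.42-fold (log2 fold change 1.78 ± 0.22 SE, limma-voom adjusted p = 0.000205) and held in each of 22 alternatives. In the later steps the log2 fold changes were -0.04 ± 0.18, 0.07 ± 0.19 and 0.58 ± 0.19 (SE), with 95% intervals of -0.43 to 0.34, -0.33 to 0.46 and 0.19 to 0.98. *Gm26859* shares 384 exonic bases with *Syt7* on the opposite strand, and the library kit does not mark strand. Reads of this stretch may be counted for either gene or left out, as their handling is not given in the sources used here.

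*Syt5* (chr7:4539765-4547541, minus strand) was the one member called as lower between 2 ages by limma-voom with TMM scaling over all libraries. Its TPM was 12.7, 13.4 and 57.7 at E15.5 and 23.0, 25.9 and 25.9 at P1, and then 3.46, 1.56 and 0.794 at P8, 1.01, 0.0360 and 3.15 at P14 and 1.91, 0.227 and 0.0798 at P30. Each library of the first 2 ages lay above each of the last 3. Between P1 and P8 it fell by 3.46 ± 0.79 on the log2 scale (SE, limma-voom adjusted p = 0.00950), and between E15.5 and P30 it fell by 5.65 ± 1.24 on the log2 scale (SE, limma-voom adjusted p = 0.00179). The first of these calls was lost with edgeR and without P8 replicate 2 (adjusted p up to 0.0832), and the second held in each of 22 alternatives. The 3 libraries of E15.5 held 292, 724 and 1568 counts, and those of P30 held 116, 6 and 4, so that the fold rests on few counts at P30.

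*Syt6* (chr3:103575231-103645569, plus strand), whose product is known for acrosome exocytosis in sperm, lay between 0.122 and 4.55 TPM in the SGN libraries. At E15.5 its TPM was 0.177, 1.51 and 4.55, so that a single age covered nearly the whole range, and no age comparison passed (F test over ages, limma-voom adjusted p = 0.643). It shares 505 exonic bases with *Atg4a-ps* on the opposite strand, so that reads of this stretch may be counted for either gene or left out.

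Of the members with altered calcium binding, *Syt11* (chr3:88744700-88775164, minus strand), which is known as a brake on endocytosis and is the closest relative of *Syt4*, had the highest TPM of the 10 in each of the 15 SGN libraries. Its TPM was 101, 50.5 and 117 at E15.5, 145, 152 and 175 at P1 and 147, 255 and 106 at P8. It was 332, 119 and 398 at P14 and 217, 278 and 168 at P30. In TPM, the E15.5 libraries lay below those of P1 and P30, and the other neighboring ages overlapped. In CPM, the libraries of E15.5 (394, 318 and 401) and P1 (448, 496 and 391) overlapped. Those of P8 (522, 544 and 491 CPM) lay below those of P14 (720, 603 and 828 CPM). Each step was small, with log2 fold changes of 0.41 ± 0.14, 0.44 ± 0.13, 0.55 ± 0.13 and 0.12 ± 0.12 (SE) in order of age. None reached 2-fold, while the whole period gave a rise of 2.88-fold (log2 fold change 1.53 ± 0.14 SE, limma-voom adjusted p = 3.91e-07). This call held in each of 22 alternatives.

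*Syt4*, which encodes a vesicle protein induced by activity in other neurons, had a TPM of 5.14, 12.5 and 1.86 at E15.5 and of 20.9, 26.3 and 31.4 at P1. Later values were 24.9, 33.1 and 14.8 at P8, 30.4, 7.61 and 26.9 at P14 and 34.0, 37.8 and 21.8 at P30. In TPM, all P1 libraries lay above those of E15.5, and P14 replicate 2 lay within the range of E15.5. In CPM, E15.5 replicate 2 (58.9) lay above P1 replicates 1 and 3 (48.3 and 52.4). The rise from E15.5 to P1 was 3.64-fold (log2 fold change 1.86 ± 0.54 SE, limma-voom adjusted p = 0.0344). The call was kept in 12 of 22 alternatives and was lost with edgeR, with DESeq2 and without any of 4 single libraries (E15.5 replicates 1 and 3, P1 replicates 2 and 3), with adjusted p up to 0.219. From E15.5 to P30 the rise of 6.87-fold (log2 fold change 2.78 ± 0.52 SE, limma-voom adjusted p = 0.000546) held in each. *Gm26658* shares 566 exonic bases with *Syt4* on the opposite strand, so that reads of this stretch may likewise be counted for either gene or left out.

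*Syt13* (chr2:92915098-92956058, plus strand), whose product lacks residues that bind calcium in other members, was high at E15.5 in 2 of 3 libraries. Its TPM was 86.1, 16.0 and 77.8 at E15.5, 31.9, 20.6 and 39.6 at P1 and 13.9, 21.7 and 7.68 at P8. At P14 it was 22.0, 3.17 and 42.0, and at P30 27.8, 16.4 and 22.2. In TPM, E15.5 replicate 2 lay below each P1 library, while the other 2 lay above every later library. In CPM, E15.5 replicate 2 (72.8) lay above the P1 libraries (71.3, 48.4 and 63.9). The log2 fold change from E15.5 to P1 was -1.13 ± 0.43 (SE) and did not pass (limma-voom adjusted p = 0.0975), but it passed without E15.5 replicate 2, with DESeq2 and with the replicate number as a block (log2 fold change -1.65 to -0.82 over 22 alternatives). Between E15.5 and P30 it was -0.90 ± 0.44 (SE, limma-voom adjusted p = 0.107), and it passed with library size as the only scaling and without E15.5 replicate 2. The F test over ages called the gene (limma-voom adjusted p = 0.0241), with a mean of 59.9 TPM at E15.5 and of 14.4 to 30.7 TPM at later ages, and that call was lost without a filter on low counts and without E15.5 replicate 1 or 3.

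By mean TPM of 3 libraries, the order of the 5 highest members at E15.5 was *Syt11* (89.5), *Syt13* (59.9), *Syt5* (27.9), *Syt7* (20.5) and *Syt1* (9.14). At P1 it was *Syt11* (158), *Syt7* (97.0), *Syt3* (54.1), *Syt2* (43.5) and *Syt13* (30.7), and at P8 *Syt11* (169), *Syt2* (130.0), *Syt3* (99.2), *Syt7* (71.4) and *Syt1* (27.1). At P14 the order was *Syt11* (283), *Syt2* (189), *Syt3* (137), *Syt7* (80.3) and *Syt1* (57.2). At P30 it was *Syt11* (221), *Syt2* (172), *Syt7* (94.1), *Syt3* (77.4) and *Syt1* (58.2). *Syt11* led at every age, and *Syt2* moved from the seventh place at E15.5 to the fourth at P1 and the second from P8 on. Neighbors in these orders overlapped in their libraries in many cases, such as *Syt11* and *Syt2* at P8, P14 and P30.

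The make-up of the family is given as each gene's share of the summed TPM of the 10 members within a library. That sum was 134 to 309 TPM at E15.5, 400.2 to 553 at P1, 361 to 822 at P8, 379 to 1125 at P14 and 548 to 864 at P30. The spread within an age need not hold in CPM. At P14 the sums were 880, 379 and 1125 TPM. The members there held 54990, 51208 and 50069 counts, of library totals of 25843913, 23945866 and 19323437. At E15.5, *Syt11* took 39.5% ± 2.86 (SD, n = 3 as for the other shares), *Syt13* 24.5% ± 12.3 and *Syt5* 11.4% ± 6.75, while *Syt2* took 2.73% ± 1.78 and *Syt3* 1.74% ± 0.689. At P8 the shares of *Syt2* and *Syt3* were 23.8% ± 1.57 and 17.8% ± 3.11, and *Syt13* was down to 2.63% ± 0.506. *Syt7* had its highest mean share at P1, 21.2% ± 1.28. *Syt1* had its highest at P30, 8.78% ± 1.33. In HCs the sum was 174 to 191 TPM and *Syt2* (36.8% ± 1.97) and *Syt13* (26.8% ± 3.05) made up most of it. In glia the sum was 14.4 to 70.2 TPM, and *Syt11* took 65.2% ± 16.5. Shares add up to a whole, so they are not independent and were not tested.

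**Figure D4:**
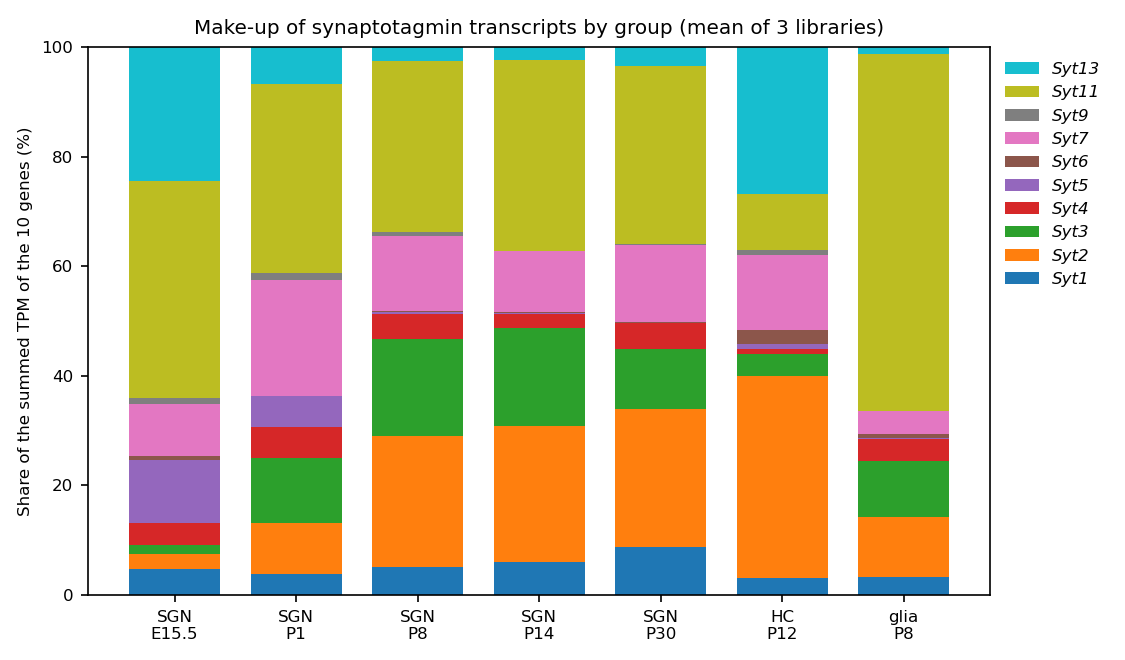
Mean share of each of the 10 genes in their summed TPM (vertical axis, percent, mean of 3 libraries) in the 7 groups (horizontal axis); each color is a gene. *Syt2* and *Syt3* together widen from 2.73% and 1.74% at E15.5 to 23.8% and 17.8% at P8 while *Syt13* narrows from 24.5% to 2.63%, and *Syt2* and *Syt13* lead in HCs.

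The second question was which members set SGNs apart from HCs and from glia. Against HCs at P12, the mean of the 5 SGN ages was higher for *Syt1*, *Syt3*, *Syt4*, *Syt7* and *Syt11*, and no member was higher in HCs past the thresholds (at least 4-fold, adjusted p under 0.01). *Syt2* and *Syt13* were well expressed in both. 5 of 10 members were higher in SGNs and 0 lower, against 10.5% and 16.2% of all 17531 genes tested, with a median log2 difference of 2.28 over the members and 0.019 over all genes. The 5 calls held in each of 28 alternatives. The HCs came from P12 only, pooled more cells and may have been isolated by another method than the hand-picked SGNs, so that cell type, age, cell number and isolation cannot be told apart here.

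*Syt11* differed without overlap. Its TPM in HCs was 21.9, 16.7 and 17.3, below each of the 15 SGN libraries (lowest 50.5 TPM), and the SGN mean lay 21.9-fold higher (log2 difference 4.45 ± 0.29 SE, limma-voom adjusted p = 5.63e-11). *Syt1* had a TPM of 7.25, 5.02 and 5.08 in HCs, just below the lowest SGN library at 7.34 TPM, P14 replicate 2 (log2 difference 3.39 ± 0.69 SE, limma-voom adjusted p = 0.000301). For *Syt7*, HCs had a TPM of 23.0, 26.8 and 24.7, within the TPM range of E15.5 SGNs and below all later SGNs (log2 difference 2.62 ± 0.26 SE, limma-voom adjusted p = 3.34e-08). In CPM, HCs (67.8, 72.8 and 66.4) lay below E15.5 SGNs (84.3, 141 and 144) as well. *Syt3* was at 4.28, 10.8 and 6.39 TPM in HCs, overlapping with E15.5 SGNs and far below the others (log2 difference 3.95 ± 0.63 SE, limma-voom adjusted p = 1.87e-05). *Syt4* was at 3.63, 0.761 and 0.851 TPM in HCs, and only the lowest E15.5 library overlapped with them (log2 difference 5.06 ± 1.00 SE, limma-voom adjusted p = 0.000232).

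*Syt2* was the leading member in HCs, with a TPM of 67.0, 63.6 and 71.5. In TPM, that is above each E15.5 and P1 SGN library and below each of the later ones. In CPM, HCs (207, 182 and 202) overlapped with P1 SGNs (127, 221 and 184) and kept their place against the other ages. The mean of the SGN ages was 2.17-fold higher, short of the 4-fold threshold (log2 difference 1.12 ± 0.29 SE, limma-voom adjusted p = 0.00256). *Syt13* followed in HCs at 41.3, 49.6 and 56.9 TPM, and its log2 difference of 0.16 ± 0.37 (SE) had a 95% interval of -0.61 to 0.93. *Syt6* had its highest group mean in HCs (2.15, 7.38 and 4.48 TPM) and a log2 difference of -1.39 ± 0.74 (SE), which did not pass (limma-voom adjusted p = 0.120). *Syt5* (2.21, 1.58 and 1.65 TPM) and *Syt9* (1.63, 1.49 and 2.35 TPM) were low in HCs and did not differ past the thresholds from the SGN mean, with 95% intervals of -0.13 to 4.02 and -1.32 to 2.85 on the log2 scale.

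Against glia at P8, 9 of 10 members were higher in the mean of the SGN ages (all but *Syt6*) and 0 lower, against 14.3% and 10.4% of all genes, with a median log2 difference of 4.26 over the members and 0.218 over all genes. At the matched age, P8, 8 of 10 were higher (all but *Syt5* and *Syt6*) and 0 lower, against 13.4% and 7.53%, with medians of 4.57 and 0.221. With sample quality weights only 3 of 10 (*Syt2*, *Syt7* and *Syt11*) were called in the first comparison and 4 (the same 3 and *Syt3*) in the second. Both comparisons use the same glial libraries, and the second uses SGN libraries of the first. The TPM ranges of P8 SGNs and glia overlapped for *Syt6* only. Glial markers summed to 10.8 to 26.2 TPM and 8 myelin genes to 798 to 1457 TPM in P8 SGNs, against 189 to 341 and 7203 to 9835 TPM in glia, and their part in the differences was not tested.

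*Syt11* was the leading member in glia as well, at 32.8, 22.8 and 11.3 TPM, below every SGN library. P8 SGNs lay 5.80-fold higher (log2 difference 2.54 ± 0.24 SE, limma-voom adjusted p = 1.08e-07). *Syt7* had a TPM of 3.24, 1.11 and 0.656 in glia and a log2 difference of 5.20 ± 0.57 SE, limma-voom adjusted p = 7.28e-07 at P8. These 2 genes and *Syt2* kept their calls in both comparisons with glia in each of 28 alternatives.

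Several members were higher in glial replicate 1 than in the other glial libraries. For *Syt2* the TPM in glia was 14.7, 1.63 and 1.03, for *Syt3* 10.5, 3.84 and 0.544 and for *Syt4* 7.004, 0.150 and 0.218, the first value of each being replicate 1. That library also had the SGN marker sum of 123 TPM given above, and its part in these levels was not tested. Without it, the log2 difference between the SGN mean and glia was 5.09 in place of 3.63 for *Syt2*, 4.43 in place of 3.32 for *Syt3* and 6.10 in place of 4.13 for *Syt4*. *Syt1* lay at 0.858, 1.85 and 0.407 TPM in glia (P8 log2 difference 4.55 ± 1.03 SE, limma-voom adjusted p = 0.00133), and its call was lost without replicate 1 (adjusted p = 0.0125) at nearly the same difference (4.48). Leaving out glial replicate 2 or 3 left 5 of 10 members called at P8 in each case, with *Syt4*, *Syt9* and *Syt13* lost.

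*Syt13* was at 0.558, 0.647 and 0.113 TPM in glia and 28.5-fold higher in P8 SGNs (log2 difference 4.83 ± 1.23 SE, limma-voom adjusted p = 0.00333), a call that was lost when any single glial library was left out. *Syt5* and *Syt9* were at or near 0 in glia, with counts of 13, 0 and 0 and of 6, 0 and 0, where a count of 0 allows up to 3. In P8 SGNs the counts were 200, 50 and 48 for *Syt5* and 272, 469 and 102 for *Syt9*. HCs exceeded glia for *Syt2*, *Syt7* and *Syt13* (3 of 10 higher and 0 lower, against 16.2% and 8.18% of all genes, medians 2.45 and 0.142). The log2 differences were 2.51 ± 0.67 for *Syt2*, 2.39 ± 0.61 for *Syt7* and 5.39 ± 1.23 for *Syt13* (SE), with limma-voom adjusted p of 0.00445, 0.00339 and 0.00132. *Syt11* had a log2 difference of -1.92 ± 0.36 (SE, HC minus glia, limma-voom adjusted p = 0.000250), short of 4-fold. Without glial replicate 3, 1 member, *Syt11*, was called between HCs and glia, as lower in HCs, and without glial replicate 2, 1 member, *Syt13*, was called, as higher in HCs.

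**Figure D5:**
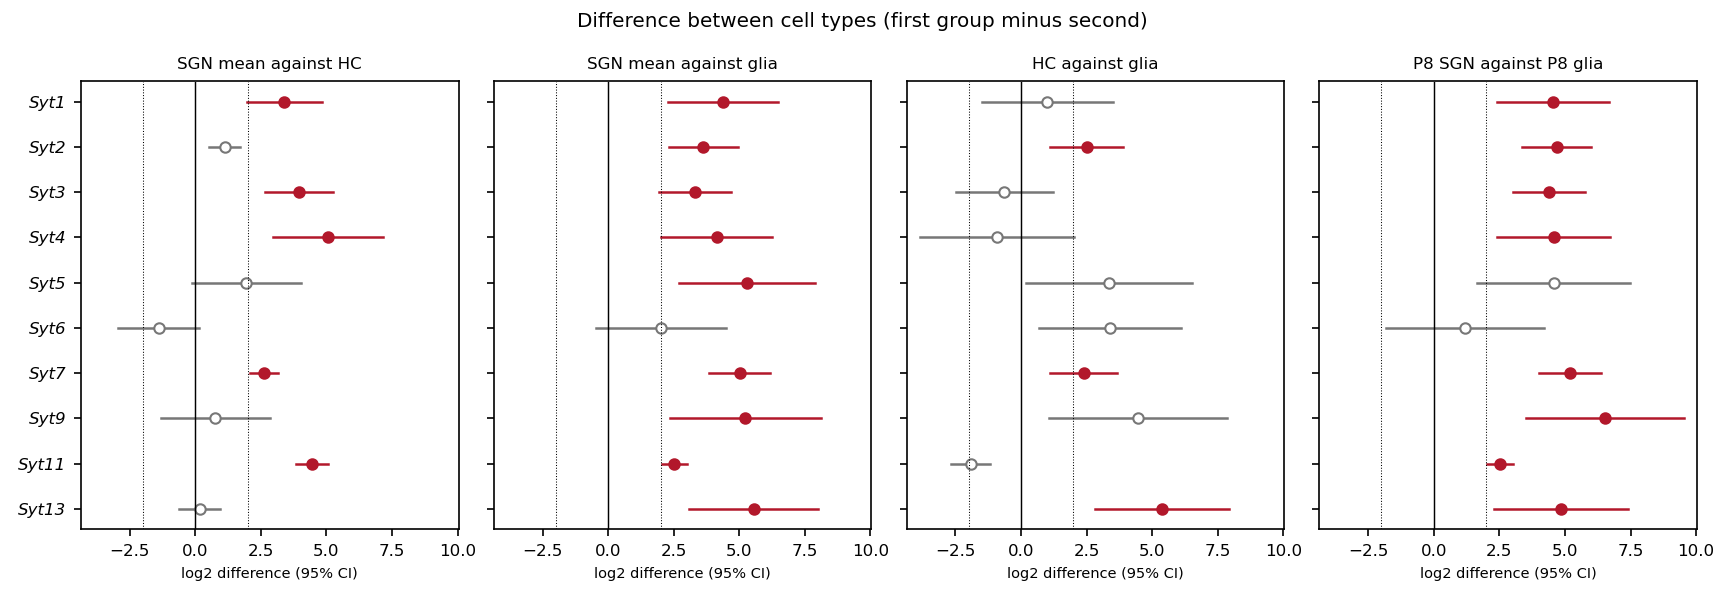
Log2 difference between cell types (horizontal axis, first group minus second, with its 95% confidence interval from limma-voom) for the 10 genes; filled red points passed both thresholds, open gray points did not, and dotted lines mark a 4-fold difference. The SGN mean exceeded HCs for 5 genes and glia for 9, HCs exceeded glia for 3, and P8 SGNs exceeded P8 glia for 8.

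The other *Syt* genes were led by 1 gene that was far higher in HCs than in SGNs. *Syt14*, a member without calcium binding, had a TPM of 251, 272 and 252 in HCs, more than any of the 10 members there, against 4.13 to 15.8 TPM in SGNs. The log2 difference, SGN minus HC, was -3.67 ± 0.11 SE, limma-voom adjusted p = 4.33e-16. *Syt16*, its close relative, showed the same direction, at 12.03, 10.7 and 9.58 TPM in HCs (log2 difference -4.38 ± 0.40 SE, limma-voom adjusted p = 8.47e-09). *Syt8* held 25, 8 and 14 counts in HCs and 0 in each SGN and glial library. *Syt17* peaked in P1 SGNs at 17.9, 27.4 and 45.8 TPM, from 12.1, 1.75 and 0.807 at E15.5, and fell by 2.95 ± 0.59 on the log2 scale from P1 to P8 (SE, limma-voom adjusted p = 0.00386).

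*Syt12*, which binds no calcium and modulates release, rose up to P8 and stood at 5.39, 2.25 and 4.11 TPM at P14. At P30 it was at 1.97, 4.29 and 2.09 TPM. *Syt12* shares 950 exonic bases with *A930001C03Rik* on the opposite strand, so that reads of this stretch may be counted for either gene or left out. The level of *Syt12* went from 0.224, 0.0795 and 0.0632 TPM at E15.5 and 0.292, 1.19 and 0.596 at P1 to 2.30, 10.01 and 1.78 at P8 (log2 fold change from P1 3.04 ± 0.66 SE, limma-voom adjusted p = 0.00673). *Syt15* held 2, 0 and 0 counts at E15.5, 119, 92 and 100 at P1 and 0 in each glial library. *Syt10* was at 18 counts or fewer in all libraries but glial replicate 3, with 226 counts. Of the 7 genes, 5 were tested. Before P1, 2 rose and 0 fell, against 5.08% and 3.18% of all genes tested. In the next step 1 rose and 2 fell, against 4.29% and 3.15%. Between E15.5 and P30, 2 rose and 1 fell, against 18.4% and 16.2%. In the SGN mean 1 was higher and 2 were lower than in HCs, against 10.5% and 16.2%. In HCs 4 were higher than in glia, against 16.2% of all genes. In P8 SGNs 2 were higher than in glia, against 13.4%.

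The list of 24 partners covers SNARE proteins, complexins, priming factors of the Unc13 family, Sv2 proteins, other C2 domain proteins and *Otof*. 20 of them were tested. Before P1, 4 rose and 1 fell, against 5.08% and 3.18% of all genes tested. Between P1 and P8, 7 rose and 3 fell, against 4.29% and 3.15%. In the 2 later steps, 0 passed with limma-voom (6 and 7 had an unadjusted p under 0.05), with edgeR and with DESeq2. Of all genes, 0.251% rose and 0.285% fell in the first of these steps, and 0.0331% and 0.0265% in the second. Between E15.5 and P30, 10 rose and 3 fell, against 18.4% and 16.2% of all genes. The median log2 fold change was 1.93, beside 1.95 for the synaptotagmins.

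*Vamp1*, a vesicle SNARE, *Snap25*, a plasma membrane SNARE, and *Stx1a*, a syntaxin of the plasma membrane, had the largest changes over the whole period. *Vamp1* went from 1.84, 3.52 and 7.13 TPM at E15.5 to 118, 214 and 122 at P30 (log2 fold change 5.39 ± 0.42 SE, limma-voom adjusted p = 8.45e-08). *Snap25* went from 104, 59.8 and 116 to 2418, 2775 and 1896 TPM (log2 fold change 4.86 ± 0.15 SE, limma-voom adjusted p = 2.49e-12). *Stx1a* fell by 4.57 ± 1.01 on the log2 scale (SE, limma-voom adjusted p = 0.00190). From E15.5 to P1, *Cplx1*, a complexin that clamps and promotes SNARE fusion, changed most (log2 fold change 2.89 ± 0.29 SE, limma-voom adjusted p = 2.37e-05). From P1 to P8, *Unc13c*, a priming factor, did (log2 fold change 3.20 ± 0.69 SE, limma-voom adjusted p = 0.00634). Its ranges overlapped in TPM but not in CPM (6.35, 2.24 and 21.9 at P1, 82.4, 45.0 and 37.6 at P8).

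Against HCs, 11 of the 20 partners were higher in the SGN mean and 1, *Otof*, was lower, against 10.5% and 16.2% of all genes. *Otof* was at 1099.7, 1215 and 1369 TPM in HCs, at 0.628 to 4.50 TPM at E15.5, 6.99 to 51.6 at P1, 2.69 to 5.68 at P8, 12.5 to 83.0 at P14 and 4.97 to 19.2 at P30, and at 5.09 to 12.4 TPM in glia. Its highest SGN library, P14 replicate 1, is the one with the highest HC marker sum, to which *Otof* itself belongs. *Cplx1* showed the largest difference, 6.93, 8.21 and 3.72 TPM in HCs, with a log2 difference of 7.59 ± 1.07 SE, limma-voom adjusted p = 4.20e-06 in favor of SGNs. Against glia at P8, 12 partners were higher and 1 lower, against 13.4% and 7.53% of all genes. The lower partner was *Ston2*, an endocytic adaptor for synaptotagmin, with 45.6, 43.4 and 36.3 TPM in glia and 4.45, 4.08 and 1.02 in P8 SGNs (log2 difference -4.26 ± 0.42 SE, limma-voom adjusted p = 1.62e-07).

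For 9 of the 10 members, the genes whose log2(TPM + 1) followed the member most closely over the 21 libraries, among all genes tested, are given. The 21 values fall into 7 groups and share depth and cell type, so r describes likeness and carries no p-value. *Syt2* was followed by *Trnp1* (r = 0.989), *Atp1b1* (0.977) and *Chchd10* (0.976), and *Syt3* by *Eno2* (0.970), *Ppargc1a* (0.968) and *Got2* (0.965). *Syt7* was followed by *Rnf208* (0.979), *Sv2a* (0.978) and *Sv2b* (0.972), the last 2 of which are on the partner list. *Syt11* was closest to *Ywhah* (0.982), *Syt1* to *Napb* (0.959), *Syt13* to *Sema3a* (0.958) and *Syt5* to *Stk32b* (0.944). The low genes had looser companions, *Syt6* with *Gm15711* (0.863) and *Syt9* with *Dhcr7* (0.832). Among the members themselves, over the 15 SGN libraries, r was highest for *Syt2* and *Syt3* (0.959) and for *Syt3* and *Syt7* (0.904), and lowest for *Syt2* and *Syt5* (-0.747).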

How the data were processed

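Processed data for 21 libraries (7 groups of 3) were used. The authors aligned reads with STAR (2.4.0i) to the mouse genome and counted them per gene with featureCounts and the GENCODE annotation (mm10), and deposited 1 table of raw counts with gene lengths. Libraries were amplified from few cells with a kit that does not mark strand, and the handling of strand, read pairs and multimapping reads is not given in the sources used here. In the median library, 67.9% of the counts between 1 and 20 were even, a measure of whether mates of a pair were counted apart. Amplified reads without molecular identifiers are not independent molecules. Symbols were taken from the annotation of the same build (52403 of 52550 genes), and all per-sample columns were mapped to samples by name.

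CPM and TPM were computed from the deposited counts. Genes with CPM over 1 in all 3 libraries of at least 1 group were tested with limma-voom (limma 3.58.1, edgeR 4.0.16, R 4.3.3) after TMM scaling, with Benjamini-Hochberg adjustment over all genes tested. The age fit held 15 SGN libraries and 15113 genes (thresholds 2-fold and 0.05), and the cell type fit held 21 libraries and 17531 genes (4-fold and 0.01), for 10 comparisons in all. The *Syt2* to *Syt1* ratio, log2 of (counts + 0.5) per length, was compared between E15.5 with P1 and P14 with P30 by a two-sided exact permutation test. Scripts were tested on simulated counts. Alternatives were the edgeR quasi-likelihood test, DESeq2 1.42.0, DESeq2 size factors, library size only, no filter, sample quality weights, the replicate number as a block, and leaving out each library.

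Named genes were the 10 members, the 7 other *Syt* genes, up to 3 called partners with the largest change per comparison plus *Otof*, and the 3 genes most like each member. A few marker genes and 1 likeness result are not reported here. The members and lists were chosen with earlier results of these data known. Among neighboring ages, same-numbered libraries deviated together (r above 0.1 in each of 3 pairs) only for P14 and P30 (0.414, 0.297 and 0.151), where the block changed no call. Among ages further apart, P1 with P14 (0.275, 0.115 and 0.143) and P8 with P30 (0.414, 0.233 and 0.184) met the same rule.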

Additional observations from a re-analysis of the deposited data

Results flagged for a closer look

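Among the 6 libraries of P14 and P30, P14 replicate 2 stood apart in the log2 ratio of *Syt2* to *Syt1*, at 3.89, while the other 5 lay between 1.17 and 1.93. The gap to the nearest library was 0.721 of the whole range, above the critical value of 0.625 for 6 values. *Syt1* was at 7.34 TPM in this library, against 54.9 and 109 TPM in the other P14 libraries (59.7 against 191 and 365 CPM). The SGN marker sum of this library was the lowest at P14 in TPM (1282 TPM), an order that need not hold in CPM. Chance alone marks about 1 in 20 such groups, and 2 groups were examined.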

How the results depend on the processing

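The ratio kept its direction under each alternative run. From P1 to P8, library size as the only scaling left 1 member higher and 1 lower, and for HCs against glia without glial replicate 3, the 1 member called (*Syt11*) was lower in HCs. With sample quality weights the members called fell from 9 to 3 for the SGN mean against glia, from 8 to 4 for P8 SGNs against glia and from 3 to 0 for HCs against glia. This last count was 5 with DESeq2 and 1 with no filter on low counts. The cause of these shifts was not tested. Leaving out each library in turn gave 3 to 5 members from E15.5 to P1, 2 to 4 from P1 to P8, 0 in both later steps, 7 to 8 between E15.5 and P30 and in the F test over ages, 5 for SGNs against HCs, 6 to 9 for the SGN mean against glia, 1 to 4 for HCs against glia, 5 to 9 for P8 SGNs against glia, and a ratio difference of 1.29 (without P14 replicate 2, p = 0.0736 in the exact permutation test) to 1.98. The lowest counts against glia came without glial replicate 2 or 3. Of the single-gene results under alternatives, 1288 kept their side of the thresholds, 55 lost a call, 19 gained 1 and 0 reversed.

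The replicate numbers were also fitted as a block. Members called were then 4 from E15.5 to P1 (3 up and 1 down, with *Syt4* lost and *Syt13* gained), 3 from P1 to P8, 0 in both later steps, 7 between E15.5 and P30, 8 in the F test, 5 against HCs, 9 for the SGN mean against glia, 3 for HCs against glia and 9 for P8 SGNs against glia, and permuting the ratio within numbers gave a difference of 1.68 (p = 0.0278, exact permutation test). Besides P14 with P30, P1 with P14 and P8 with P30 had r above 0.1 for each number. For P1 with P8 (r = 0.404, 0.0741 and 0.168) and P8 with P14 (0.386, 0.163 and 0.0686), not every number did. For E15.5 with P1, r was -0.0787, -0.0762 and 0.0790. Whether the numbers mark a shared batch was not tested.

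With library size as the only scaling, the median log2 change of all genes moved by -0.47 between E15.5 and P30, by -0.55 for SGNs against HCs and by 0.49 for HCs against glia. Depth limits *Syt5* and *Syt9* most, which held 13 counts or fewer in each glial library.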
